A study of Bos taurus with 94 samples.

Results

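Kidney-restricted genes were defined here as the 80 genes, of 24616 in the deposited table, whose level in both kidney libraries stood furthest above the level in every other library. Levels were taken as L = log2(FPKM + 1), where FPKM is the number of sequenced fragments scaled by transcript length and by the mapped fragments of the library. The 80 genes were chosen by the gap, which is the lower of the kidney cortex and kidney medulla values of L minus the highest L of the other 92 libraries. The gap and the highest level elsewhere are therefore descriptions and carry no test.

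The series measured RNA by sequencing in 94 libraries of snap-frozen Hereford cattle tissues, all labelled adult, including the fetal testis. No treatment and no genotype beyond the breed is given in the labels, and they name no animal, so it is not known which libraries share one. Kidney cortex and kidney medulla had 1 library each. The other 92 libraries covered liver, gut, brain, pituitary and pineal gland, eye, muscle and heart, fat, lymphoid tissue, lung and airway, the male and female reproductive tracts, and the ureter, bladder and urethra; only the follicle label occurred more than 1 time, with 3 libraries.

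The kidney filters blood in the glomeruli of the cortex and recovers water, salts, sugars and amino acids along the tubules. The proximal and distal convoluted tubules and the glomeruli lie in the cortex, whereas the loops of Henle and the collecting ducts run down into the medulla and build the osmotic gradient that concentrates urine. Tubule cells rely on solute carriers, channels and pumps, many of which are also used by other absorbing epithelia, and the proximal tubule shares pathways such as gluconeogenesis and amino acid breakdown with the liver. None of the 24616 Ensembl identifiers could be paired with a symbol in the gene table used here (0 matched), so no gene below is named by function, the kidney labels could not be checked against marker genes, and no promoter or protein is shown. Genes are called by their place in the order of the gap, and 4 are given by identifier.

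The 94 libraries held different FPKM totals, 697239 in kidney cortex and 737156 in kidney medulla, and their sequencing depth cannot be read from FPKM. The number of genes listed above 0 was 16399 in cortex and 17066 in medulla, beside a median of 16002 and a range of 7807 to 18417 in the other 92 libraries. The kidney libraries were the third most alike of the 4371 pairs of libraries, with 158 of 13257 genes (1.19%) at least 2-fold apart. Only the pair labelled gall bladder and diaphragm (0.229%) and a pair of endometrial libraries (1.09%) were closer. The sides of the ampulla were 2.36% apart, those of the intercaruncular endometrium 2.50%, those of the infundibulum 7.94%, and follicle replicates 21.2% to 56.4%. Outside the kidney, the library with the fewest such genes was 32.5% apart from cortex (salivary gland) and 29.9% apart from medulla (fornix of the vagina).

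Most of the 80 genes were abundant in both kidney libraries, and all were lower elsewhere, as the rule requires. The median level of the 80 was 152 FPKM in cortex, from 6.17 to 10447, and 145 FPKM in medulla, from 5.47 to 9397. Levels of at least 100 FPKM were reached in cortex by 56 of the 80, and 10 of them were among the 100 most abundant genes of the cortex library. Together they held 5.02% of all FPKM in cortex and 4.52% in medulla. In the other 92 libraries they held 0.0156% to 0.284%, with a median of 0.0421%, and the highest share was in the anterior pituitary. There the gene at place 66 alone made up 2078 of the 2259 FPKM, and without it the share was 0.0227%. The same gene also weighs on the kidney shares, with 10447 of 697239 FPKM in cortex and 9397 of 737156 in medulla. The kidney shares above include it, so they do not compare directly with 0.0227%.

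The gap ran from 7.21 at place 1 to 1.86 at place 80, with a median of 3.02, and 17 genes had a gap of at least 5. Over all 24616 genes, 395 (1.6%) were higher in both kidney libraries than in all others, and 137 (0.557%) were higher by a gap of at least 1, so the 80 are the upper part of a longer list. The limit falls at no step in the values. The last genes inside, at places 78, 79 and 80, had gaps of 1.91, 1.89 and 1.86, and the first outside, at places 81, 82 and 83, had gaps of 1.85, 1.83 and 1.81.

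**Figure D1:**
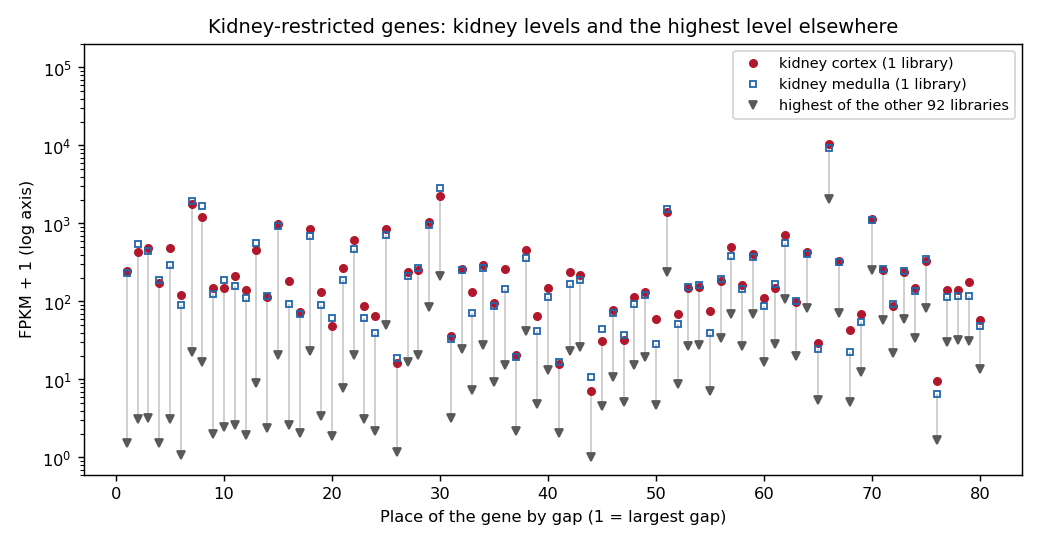
Level of each of the 80 genes in kidney cortex (filled circles), kidney medulla (open squares) and the highest of the other 92 libraries (triangles), as FPKM + 1 on a log axis, against the place of the gene by gap. The grey line is the distance between the lower kidney value and the highest value elsewhere; cortex and medulla lie close together at nearly every place, and the grey lines shorten from left to right.

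The leading genes were high in kidney and close to 0 elsewhere. The gene at place 1 stood at 248 FPKM in cortex and 228 in medulla, and its highest level in the other 92 libraries was 0.553. At place 2 the levels were 429 in cortex and 546 in medulla against at most 2.13 elsewhere, and at place 3 they were 479 and 439 against at most 2.21. For each of these 3 genes the median of the other libraries was 0. The kidney libraries thus stood apart from all others without overlap, as the rule requires.

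The genes at places 7 and 8 were more abundant. The first stood at 1792 FPKM in cortex and 1938 in medulla, and the other at 1221 and 1691. Elsewhere both were highest in the same 3 libraries, at 21.6, 19.3 and 19.1 FPKM in gall bladder, diaphragm and liver for the first, and at 14.6, 15.6 and 11.3 for the other. The libraries labelled gall bladder and diaphragm are the most alike pair of the series, so in the counts below they stand as libraries and not as separate tissues.

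The list held both narrow and broad genes. At an FPKM of 1 or more, 9 genes were found in none of the other 92 libraries, 26 in 1 to 5 of them, 26 in 6 to 45, 13 in 46 to 91, and 6 in all 92. The 9 narrowest genes had cortex levels of 6.17 to 248 FPKM and medulla levels of 5.47 to 228. ENSBTAG00000013456 was listed at 0 in all 92 other libraries and stood at 6.17 FPKM in cortex and 9.90 in medulla. It was the only one of the 80 with no value above 0 outside the kidney, and also the one with the lowest level in cortex.

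Broad genes were found only from place 27 on. The 6 that reached 1 FPKM in every library lay between places 54 and 75 and had cortex levels of 153 to 10447 FPKM. The most abundant of all, at place 66, stood at 10447 FPKM in cortex and 9397 in medulla. It also reached 2078 FPKM in the anterior pituitary, 1527 in subcutaneous fat and 1164 in the ureter, and its median over the other libraries was 57.4 FPKM. Such a gene is higher in kidney than elsewhere but is not confined to it, so the word restricted applies to the upper places of the list more than to the lower ones.

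**Figure D2:**
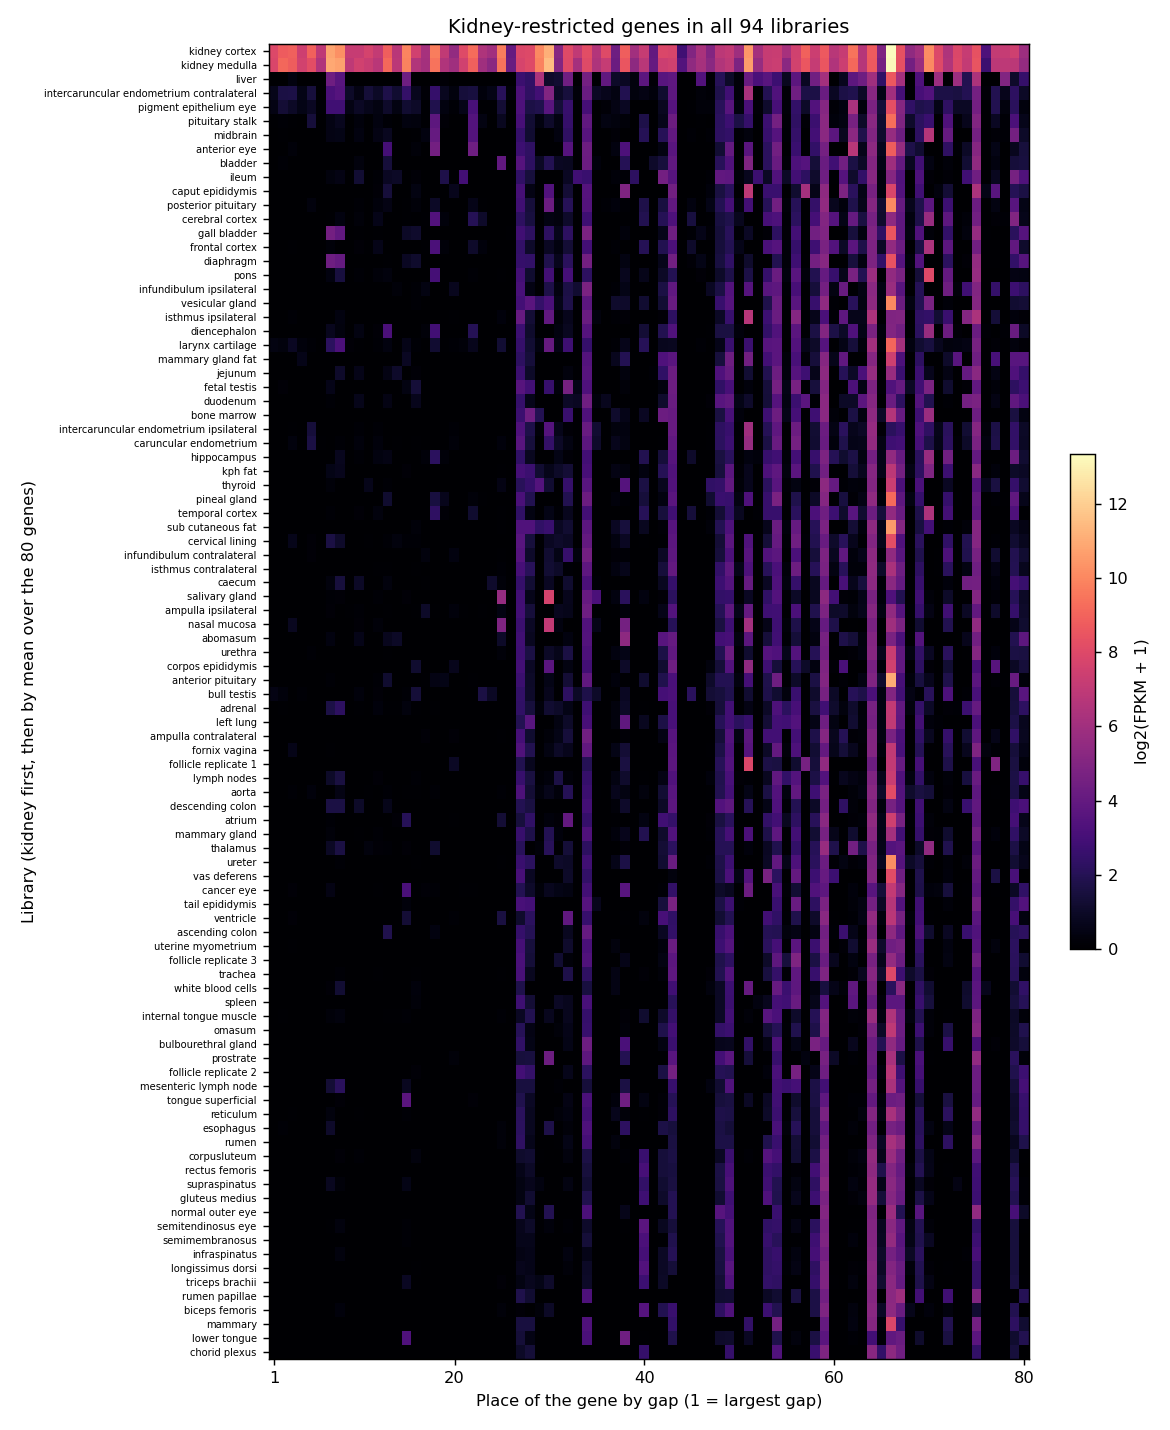
log2(FPKM + 1) of the 80 genes (columns, by place) in all 94 libraries (rows, kidney first and then by their mean over the 80 genes). The first 26 columns are dark outside the kidney rows in most libraries, and the bright columns further right are the broad genes, among them the gene at place 66.

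The second question was how the genes divide between cortex and medulla. The rule takes the lower of the cortex and medulla values, so it favours genes that are high in both, and their difference was not used directly. With 1 library of each region there is no replicate spread and no test, and in bulk tissue fewer cells of a type and less RNA per cell cannot be told apart. Most of the 80 genes were near balance, with a lean to cortex. Of the 80, 55 (68.75%) were higher in cortex and 25 in medulla, beside 51.1% higher in cortex of the 13257 genes that reached 1 FPKM in either kidney library. The median difference in L, cortex minus medulla, was 0.15, with quartiles of -0.05 and 0.38. Over the 13257 genes the median was 0.01, with quartiles of -0.14 and 0.18. The balance over all genes moves with the scaling: after rescaling to equal totals 65 of the same 80 genes and 64% of the 13257 were higher in cortex, and after quantile normalization 56 and 45.9%.

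A difference of at least 1 in L, about 2-fold, was reached by 1 of the 80 genes toward cortex, beside 0.807% of the 13257, and by 0 toward medulla, beside 0.385%. At a difference of at least 0.5, 13 genes (16.25%) were higher in cortex, beside 5.52% of all genes, and 1 was higher in medulla, beside 2.09%. The same 80 genes gave 18 and 1 at this limit after rescaling to equal totals, beside 7.56% and 1.45% of all genes, and 18 and 1 after quantile normalization, beside 4.56% and 2.61%. On the linear scale the ratio of cortex to medulla ran from 0.624 to 2.17, with a median of 1.11.

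**Figure D3:**
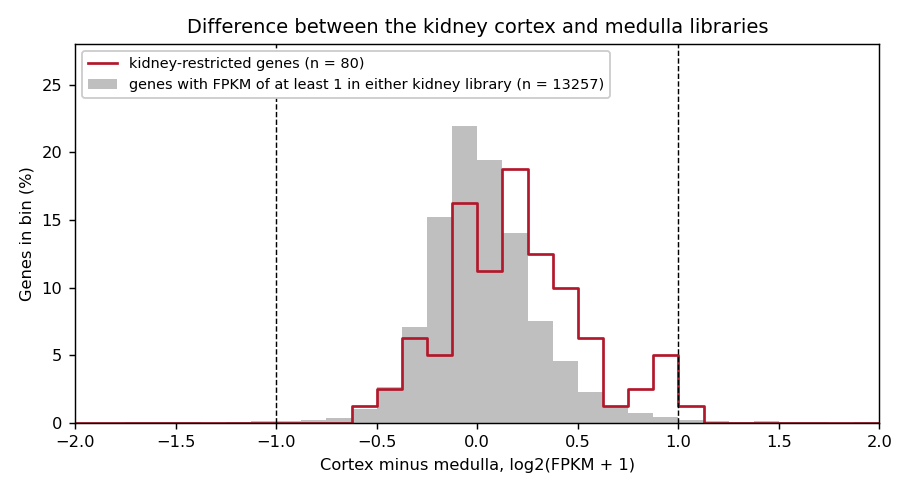
Difference between the kidney cortex and kidney medulla libraries in log2(FPKM + 1), for the 80 kidney-restricted genes (red line) and for the 13257 genes that reached 1 FPKM in either of them (grey bars), as the percentage of genes in each bin. Dashed lines mark differences of -1 and 1. The red line lies above the grey bars from 0.125 to 1.125, except in the bin that starts at 0.625 (1.25% against 1.27%). Beyond the right line lies 1 gene of the 80.

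The gene furthest toward cortex was ENSBTAG00000013984, with 58.9 FPKM in cortex and 27.2 in medulla, a difference of 1.09 in L. In the other 92 libraries its lowest and median levels were 0 and its highest was 3.71 FPKM, in left lung, followed by 2.23 in the pituitary stalk. Next came ENSBTAG00000005072, with 183 FPKM in cortex and 92.5 in medulla, a difference of 0.98. Elsewhere it reached 1 FPKM in 6 libraries, with 1.63 in fetal testis, 1.62 in bull testis, 1.24 in the body of the epididymis, 1.17 in diaphragm, 1.15 in gall bladder and 1.03 in the pigment epithelium, and its median over the other libraries was 0.0223. Both genes were thus about 2 times as high in the cortex library as in the medulla library, and low outside the kidney.

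Toward medulla the differences were smaller. ENSBTAG00000013456, the gene listed at 0 everywhere else, had the lowest value, -0.60. ENSBTAG00000002167 stood at 30.5 FPKM in cortex and 43.0 in medulla, a difference of -0.48, and its highest levels elsewhere were 3.51 in bull testis and 1.87 in cerebral cortex. The abundant genes at places 8 and 30 leaned the same way, with 1221 against 1691 FPKM and 2257 against 2875, differences of -0.47 and -0.35.

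Choosing by 1 region alone changed few genes. With cortex alone in place of the lower value, 75 of the 80 genes stayed and 5 entered, with differences of 0.52 to 1.01 toward cortex. With medulla alone, 77 stayed and 3 entered, with differences of -0.24 to -0.39. Genes that were high in 1 kidney library and near 0 in the other did not appear among these 8 entrants.

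Second tissues were the libraries in which each gene was highest outside the kidney. This highest level had a median of 14.4 FPKM and was below 1 for 9 genes, from 1 to below 10 for 27, and 10 or more for 44. As a share of the lower kidney level it had a median of 10.5% and at most 26.4%. It fell in 36 different libraries, 21 of which led for a single gene. The liver led for 13 genes, the contralateral intercaruncular endometrium for 8, the ileum for 7 and the ipsilateral isthmus of the oviduct for 4. Anterior eye, salivary gland, thyroid and follicle replicate 1 led for 3 each. All 3 genes led by follicle replicate 1 were listed at 0 in follicle replicates 2 and 3, so 1 of the 3 follicle libraries carries them.

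Liver was the most frequent second tissue. The 13 genes that it led lay between places 15 and 78, 9 of them from place 41 on, and stood at 67.7 to 1058 FPKM in kidney cortex. Their liver levels ran from 7.84 to 84.2 FPKM, with a median of 18.1% of the lower kidney level. The gene at place 29 is an example with little elsewhere: it stood at 1058 FPKM in cortex, 946 in medulla and 84.2 in liver, followed by 10.2 in thyroid, and its median over the other libraries was 0. Another, at place 71, stood at 250 FPKM in cortex, 256 in medulla and 57.7 in liver, followed by 2.20 in the contralateral intercaruncular endometrium. Another 3 reached 1 FPKM in all 92 other libraries as well. Among these, the gene at place 67 had 70.1 FPKM in liver and 69.9 in larynx cartilage, and the one at place 59 had 67.9 in liver and 51.4 in thalamus. Over all 80 genes, 39 (48.75%) reached 1 FPKM in liver, a share near the 47.9% of all 24616 genes that did, and 30 were listed at 0 there. At least 10% of the lower kidney level was reached in liver by 16 genes, in duodenum by 8, and in ileum, jejunum and the head of the epididymis by 7 each. The median library outside the kidney had 2 such genes, and 15 libraries had none.

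Liver also decided which genes could enter the list. When liver was left out of the other libraries, 41 of the 80 genes stayed and 39 others took places, all with a gap of at least 3.15 to the remaining 91 libraries. In kidney cortex these 39 genes stood at 17.9 to 2297 FPKM, with a median of 146, and in liver at 14.7 to 2414 FPKM, with a median of 176. In 16 of them the liver level was above both kidney levels and in 22 it was below both. They leaned to cortex: 36 of 39 were higher in cortex than in medulla, with a median difference of 0.27 in L, and the extremes were -0.23 and 0.98. After rescaling to equal totals 37 of the 39 were higher in cortex, and after quantile normalization 35, beside the shares of all genes given above. Each of the other 91 libraries was also left out in turn, a step added after the data were seen, and none let in as many. Leaving out bull testis let 4 genes in, the head of the epididymis, follicle replicate 1 and the salivary gland let in 2 each, 8 libraries let in 1 each, and 79 let in 0. A tissue with several libraries frees few genes when only 1 is left out, so libraries of an organ system were also left out together. The 6 intestinal libraries then let in 7 genes, and the 9 other gut libraries, salivary gland among them, let in 6. The 9 of the male tract let in 5, the 16 of the female tract 4 and the 8 of brain 3. Eye, the lower urinary tract, and pituitary with pineal let in 1 each. The 32 libraries assigned to no system were not left out together.

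**Figure D4:**
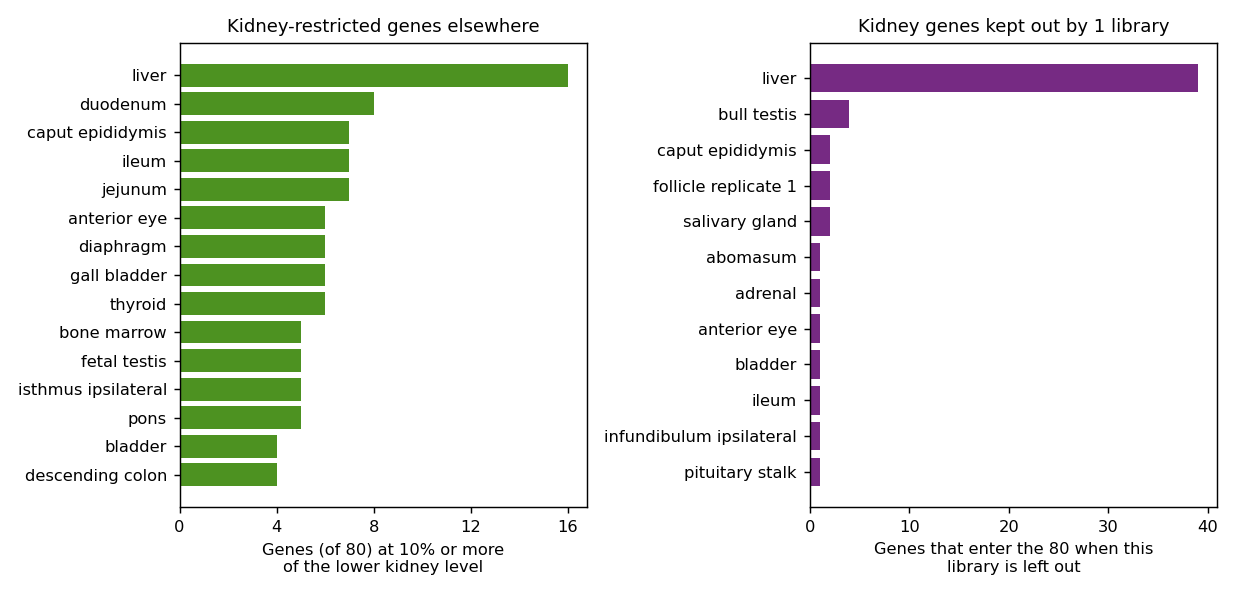
Left, the number of the 80 genes at 10% or more of their lower kidney level, for the 15 libraries with the most such genes; right, the number of genes that enter the list of 80 when a library is left out, for 12 libraries. Liver has 16 genes on the left and 39 on the right, and the next library on the right, bull testis, has 4.

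The ileum led for 7 genes between places 10 and 48, with kidney cortex levels of 64.2 to 270 FPKM and ileum levels of 1.43 to 22.0. Their ileum level was a median of 8.92% of the lower kidney level. For most of them the rest of the small intestine did not follow: the next library was the duodenum for 1 of the 7, and 5 of the 7 stayed below 1 FPKM in jejunum. The gene at place 21, for example, stood at 270 FPKM in cortex, 188 in medulla and 6.75 in ileum, and was listed at 0 in both duodenum and jejunum. Of the 7 genes 6 were higher in cortex than in medulla, with a median difference of 0.52 in L, whereas the 13 genes led by liver had a median of 0.13 with 9 higher in cortex. These are counts of a few genes from single libraries, and the difference between them was not tested.

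Some genes shared their second tissues with each other. The genes at places 25 and 30 were both highest in salivary gland and then in nasal mucosa, with 49.1 and 28.1 FPKM for the first, and 208 and 134 for the other. In kidney they stood at 838 and 707 FPKM, and at 2257 and 2875, in cortex and medulla. Places 18 and 22 shared anterior eye, midbrain and pituitary stalk, with 21.9, 15.7 and 12.6 FPKM for place 18 and 19.5, 9.87 and 10.1 for place 22. In kidney cortex these were 851 and 617 FPKM. The gene at place 62 was likewise highest in anterior eye, at 108 FPKM, followed by 76.9 in the pigment epithelium, beside 713 in cortex and 561 in medulla. In brain, the gene at place 70 reached 253 FPKM in the pons against 97.7 in midbrain, and stood at 1126 in kidney cortex and 1092 in medulla. At place 51 the highest libraries outside the kidney were follicle replicate 1 with 234 FPKM, where follicle replicates 2 and 3 were listed at 0, and the head of the epididymis with 120, beside 1389 in cortex and 1540 in medulla.

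The lower urinary tract, which carries the urine onward, led for 1 of the 80 genes, the one at place 41, which stood at 14.8 FPKM in cortex, 15.6 in medulla and 1.07 in bladder. At least 10% of the lower kidney level was reached by 1 gene in ureter, 4 in bladder and 2 in urethra, beside 2 in the median library. A level of 1 FPKM was reached by 19 (23.75%), 30 (37.5%) and 22 (27.5%) of the 80. Of all 24616 genes, 50.4%, 52.5% and 53.0% reached it in these libraries. The rule chose the genes for being low in these libraries, as in all others. The library labelled adrenal, a gland that lies against the kidney, had 0 genes at 10% of the lower kidney level. There 25 of the 80 (31.25%) reached 1 FPKM, beside 53.7% of all genes and a median of 22 of the 80 over the other 92 libraries. It listed 56 of the 80 above 0, beside a median of 38, and 13 of the 25 genes with the largest gap, beside a median of 4.5. Of all 24616 genes it listed 17017 above 0, beside a median of 16002 over the other 92 libraries. The caruncular endometrium gave the same counts, 56 of the 80 and 13 of the 25, so they were not particular to the adrenal.

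A low level of most of the 25 genes with the largest gap appeared in a few unrelated libraries. In the contralateral intercaruncular endometrium 76 of the 80 genes were listed above 0, and in the pigment epithelium of the eye 75, beside a median of 38 over the other 92 libraries. These counts include genes that were not low there, such as place 51 with 77.1 FPKM in that endometrium and place 66 with 307 in the pigment epithelium. Among the 25 genes with the largest gap, 24 were above 0 in that endometrium, 25 in the pigment epithelium, 20 in the pituitary stalk and 19 in larynx cartilage, where the median library had 4.5. The ipsilateral intercaruncular endometrium, the same tissue from the other side, listed 19 of the 25 at 0, and 24 of the 25 were higher on the contralateral side. The level of the 24 genes in the contralateral library was 0.216% to 1.25% of the lower kidney level, with a median of 0.562%. For the pigment epithelium it was 0.0952% to 1.63% over 25 genes, with a median of 0.286%.

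In some of these libraries the low levels followed the order of the kidney levels. Across the 25 genes Spearman's rho with the lower kidney level was 0.90 in the contralateral endometrium, 0.91 in the pigment epithelium and 0.89 in larynx cartilage. It was 0.50 in the pituitary stalk, 0.43 in the adrenal and -0.01 in the caruncular endometrium. The 25 points of each value share their libraries, and the genes were chosen for being low in all of these libraries, so the values are descriptions. The contralateral endometrium listed 16752 genes above 0 in all and the pigment epithelium 17425, inside the range of the other libraries. The 8 genes for which that endometrium was the second tissue lay between places 1 and 26 and stood there at 0.180 to 2.21 FPKM, so for them the name of the second tissue rests on levels near or below 1 FPKM. The source of these low levels was not tested. Without that library the same 80 genes were chosen, with liver leading for 13 and the ileum for 7. In an unchanged set these counts could not fall, because a gene led by liver or ileum stays so when another library is left out.

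**Figure D5:**
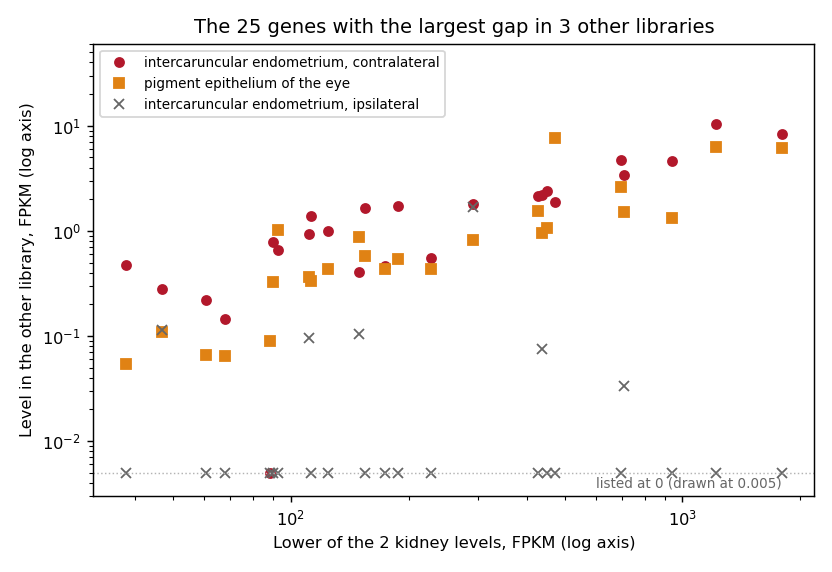
Level of the 25 genes with the largest gap in the contralateral intercaruncular endometrium (circles), the pigment epithelium of the eye (squares) and the ipsilateral intercaruncular endometrium (crosses), against the lower of the kidney levels, both in FPKM on log axes. Values listed at 0 are drawn at 0.005; circles and squares rise with the kidney level, and 19 of the 25 crosses lie at 0.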

How the data were processed

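Total RNA of 94 tissue libraries was sequenced. The deposited values are FPKM per gene, per the file headers and the labels. The authors ran HISAT2 and StringTie and name the build UMD3.1, per the submitters' processing notes. The annotation, any filter and the tool versions were not given in the sources used here. FPKM divides by a library total, so abundant genes lower the others, and without counts the depth and counting error are unknown.

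Libraries were grouped by tissue label. Values were analysed as log2(FPKM + 1), which understates folds of low genes. The 80 genes were chosen as described above, and cortex and medulla were compared over the 13257 genes that reached 1 FPKM in either. No test was run, since each kidney region has 1 library and the rule used the contrast with other tissues. Python 3.11.15, numpy 2.4.6 and pandas 2.3.3 were used. The selection code was also run on simulated data in which only the planted genes stood above all other libraries. That run checks the code and says nothing about the limit of 80 in these data. The members and lists were chosen with earlier results of these data known. The rule for named genes took symbols; since 0 identifiers matched the gene table of assembly ARS-UCD2.0, it gave 2 identifiers toward each kidney region, and the marker lists, promoters and proteins were not used. Genes given by place were chosen after their values were seen. Alternatives were a pseudocount of 0.1, rescaling to equal totals, quantile normalization, other forms of the rule and libraries left out.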

Additional observations from a re-analysis of the deposited data

How the results depend on the processing

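Of 93 recomputed values, 76 stayed within 1.5 times the value reported (for the median difference over all genes, within 0.1). Values into which the changed filter or limit does not enter were left out of this count. With them it was 88 of 105. That median changed sign, to -0.03 after quantile normalization and -0.02 at an FPKM of at least 10; no median over the 80 genes did. Of the 80 genes, 76 remained with a pseudocount of 0.1, 79 after rescaling to equal totals, 73 after quantile normalization, 41 without liver and 47 when the second highest other library took the place of the highest. Without single follicle libraries 78 to 80 genes remained. The count of genes at least 1 higher in cortex was 2 with a pseudocount of 0.1, 4 after rescaling, 2 after quantile normalization and 0 at a limit of 2, against 1. After rescaling the median difference of the newly chosen genes was 0.23. The share of all genes past the limit toward cortex and medulla was 1.97% and 0.89% with a pseudocount of 0.1, 0.151% and 0.0226% at a limit of 2, 0.435% and 0.207% with no filter, and 0.0718% toward medulla at an FPKM of at least 10. The contralateral endometrium led for 5 genes after quantile normalization, and for 0 once it was left out, alone or with the other 4 libraries that list kidney genes at low levels (both added after seeing the data). Those 4 were the pigment epithelium, larynx cartilage, pituitary stalk and adrenal. The liver led for 12 to 17 genes and the ileum for 6 or 7 under the alternatives for which second tissues were counted. They were not counted for the rule with cortex or medulla alone, without liver, or with the second highest other library. No paired analysis was possible because each kidney region has 1 library. With 1 library per region, no difference between cortex and medulla has a replicate check.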
